A study of Zea mays with 12 samples.

Results

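The genes described here had more signal at 15 than at 10 days after pollination (DAP) in seeds of the transgenic maize line L100, with no such increase in wild-type seeds. There were 40 of them among 41430 gene models. They were chosen from the deposited normalized signal, averaged over 3 libraries per group. A gene model was taken when its L100 mean at 15 DAP was at least 100, when (15 DAP mean + 1) / (10 DAP mean + 1) was at least 2.5 in L100 and at most 1.1 in wild type, and when the lowest L100 library at 15 DAP lay above the highest wild-type library at 15 DAP. This quotient is called the stage ratio below. The choice used all 12 libraries, so the stage ratios and line differences of these genes are a description of what was chosen and carry no test.

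Maize seeds of the wild type, labelled Q319, and of L100 were collected at 10 and at 15 DAP, and their RNA was sequenced. Each of the 4 groups had 3 libraries: wild type at 10 DAP, wild type at 15 DAP, L100 at 10 DAP and L100 at 15 DAP. L100 is a single transgenic line. The labels do not name its transgene, the promoter that drives it, the copy number or the parentage of the line, nor the number of seeds or plants behind a library.

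A maize seed is mostly endosperm, a tissue that fills with starch and zein proteins, and it also holds the embryo, which stores oil and globulins, and the maternal seed coat. Embryos keep oil in droplets that are coated by oleosins, small proteins that stop the droplets from fusing, and that also carry oil body associated proteins. Other enzymes with named genes in the set are allene oxide synthase, which makes the precursor of the hormone jasmonate from an oxidized fatty acid, and the kinase that activates phosphoenolpyruvate carboxylase, an enzyme that feeds carbon into organic acids.

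Library totals ran from 14014035 to 22370566 counts. The 10 genes with the most counts took 3.22% to 4.86% of them at 10 DAP and 11.67% to 16.56% at 15 DAP. The labelled tissue was whole seeds. Summed markers of the starchy endosperm (9 gene models), embryo (7), aleurone (6), basal transfer layer (6), embryo surrounding region (3) and seed coat or nucellus (3) had signal in every group. Single markers did not always, such as c1 of the aleurone, which was at 0 in every library at 10 DAP. The nearest 2 libraries were replicates 1 and 2 of L100 at 15 DAP, with a chi-square per gene of 6.68 against counting error, compared with 11.6 to 40.42 for the other replicate pairs, so they may be less independent than the rest. Nothing in the labels says whether libraries came from separate plants, and p-values below measure only the spread between these libraries.

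Of the 15746 gene models with an L100 mean of at least 100 at 15 DAP, 814 had a stage ratio of at least 2.5 in L100, and the 40 genes are a small part of these. Their median stage ratio was 3.66 in L100 and 0.76 in wild type, against 1.02 and 1.03 over the 15746 models. At 10 DAP the median of L100 over wild type was 1.01, but single genes ran from 0.025 to 35.2. The highest, Maize_newGene_5779, had no count in wild type, so the added 1 set its size. At 15 DAP the median of L100 over wild type was 6.36. Only 5 of the 40 had a wild-type ratio of at most 0.5, 19 lay between 0.5 and 0.9, and 16 between 0.9 and 1.1. In L100, 28 had a ratio below 5, 5 lay between 5 and 10, and 7 reached 10 or more. The median L100 mean at 15 DAP was 182. It was under 150 for 18 genes, and the 4 highest were at 1031 to 4477. The same choice with the lines swapped gave 36 genes out of 836 that met the level and ratio criteria in wild type.

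**Figure D1:**
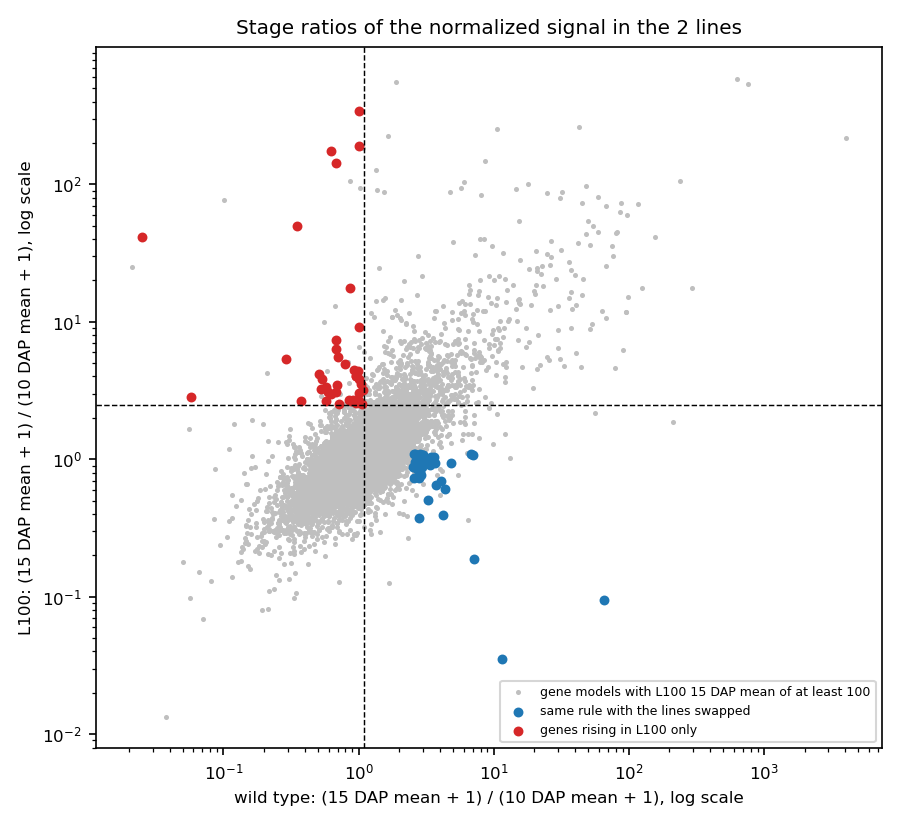
Stage ratio in wild type (horizontal, log scale) against stage ratio in L100 (vertical, log scale) for gene models with an L100 mean of at least 100 at 15 DAP (gray), the 40 genes (red) and the genes chosen with the lines swapped (blue); dashed lines mark 1.1 and 2.5. Most red points lie just above the line at 2.5, and the highest has a ratio of 343 in L100. Its L100 mean at 10 DAP was 0, so the added 1 set the size of this ratio.

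In the libraries themselves, every L100 value at 15 DAP lay above every L100 value at 10 DAP for 33 of the 40 genes. That held for 23.6% of the models with an L100 mean of at least 100, and nothing is read from the difference, since the stage ratio chose the genes. At 10 DAP the L100 and wild-type libraries overlapped for 32 genes. L100 lay above wild type for GRMZM2G031354 and the aquaporin gene TIP4-1, where 12.8% of models did so, and below it for 6 genes, where 17.8% did so.

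edgeR's quasi-likelihood test over all 24941 genes with enough counts included each of the 40. With Benjamini-Hochberg adjusted p below 0.05, 29 were higher at 15 than at 10 DAP in L100 (12.2% of all genes tested) and 28 were higher in L100 than in wild type at 15 DAP (3.57%). In wild type none was higher at 15 DAP, with 0 at an unadjusted p below 0.05 and 0 by DESeq2, and 4 were lower, with 15.3% of all genes lower. These 4 were PPCK3, aos2, GRMZM2G056986 and Maize_newGene_8179. The count was 2 without replicate 2, or without replicate 3, of wild type at 15 DAP. At 10 DAP, GRMZM2G031354 was higher in L100 (1.76% of genes) and Maize_newGene_8179 and GRMZM2G056986 were lower (1.24%). This count of 3 became 1 without replicate 2 of either line at 10 DAP, and 7 without replicate 3 of L100 at 10 DAP. All these counts rest on the contrasts that chose the genes, and nothing is read from them.

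The interaction, which is the stage difference in L100 minus that in wild type on the log2 scale, passed for 9 of the 40, all higher, where 0.273% of all genes tested were called higher. At an unadjusted p below 0.05 there were 30, and DESeq2 called 24 in all. Omitting a single library changed the count. It was 2 when replicate 2 was left out of wild type at 15 DAP, of L100 at 10 DAP or of L100 at 15 DAP. It was 3 when replicate 2 or 3 was left out of wild type at 10 DAP, or replicate 1 out of either line at 15 DAP, and 4 when replicate 1 was left out of wild type at 10 DAP. AC199541.4_FG007 and GRMZM2G056986 kept their call without each of the 12 libraries in turn. AC199541.4_FG007 lies inside AC199541.4_FG001 on the same strand, and how reads were divided between them is not stated. GRMZM2G056986 was lower in L100 at 10 DAP (log2 -2.37). At 15 DAP it was not called between the lines (log2 0.68, edgeR adjusted p = 0.123).

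**Figure D2:**
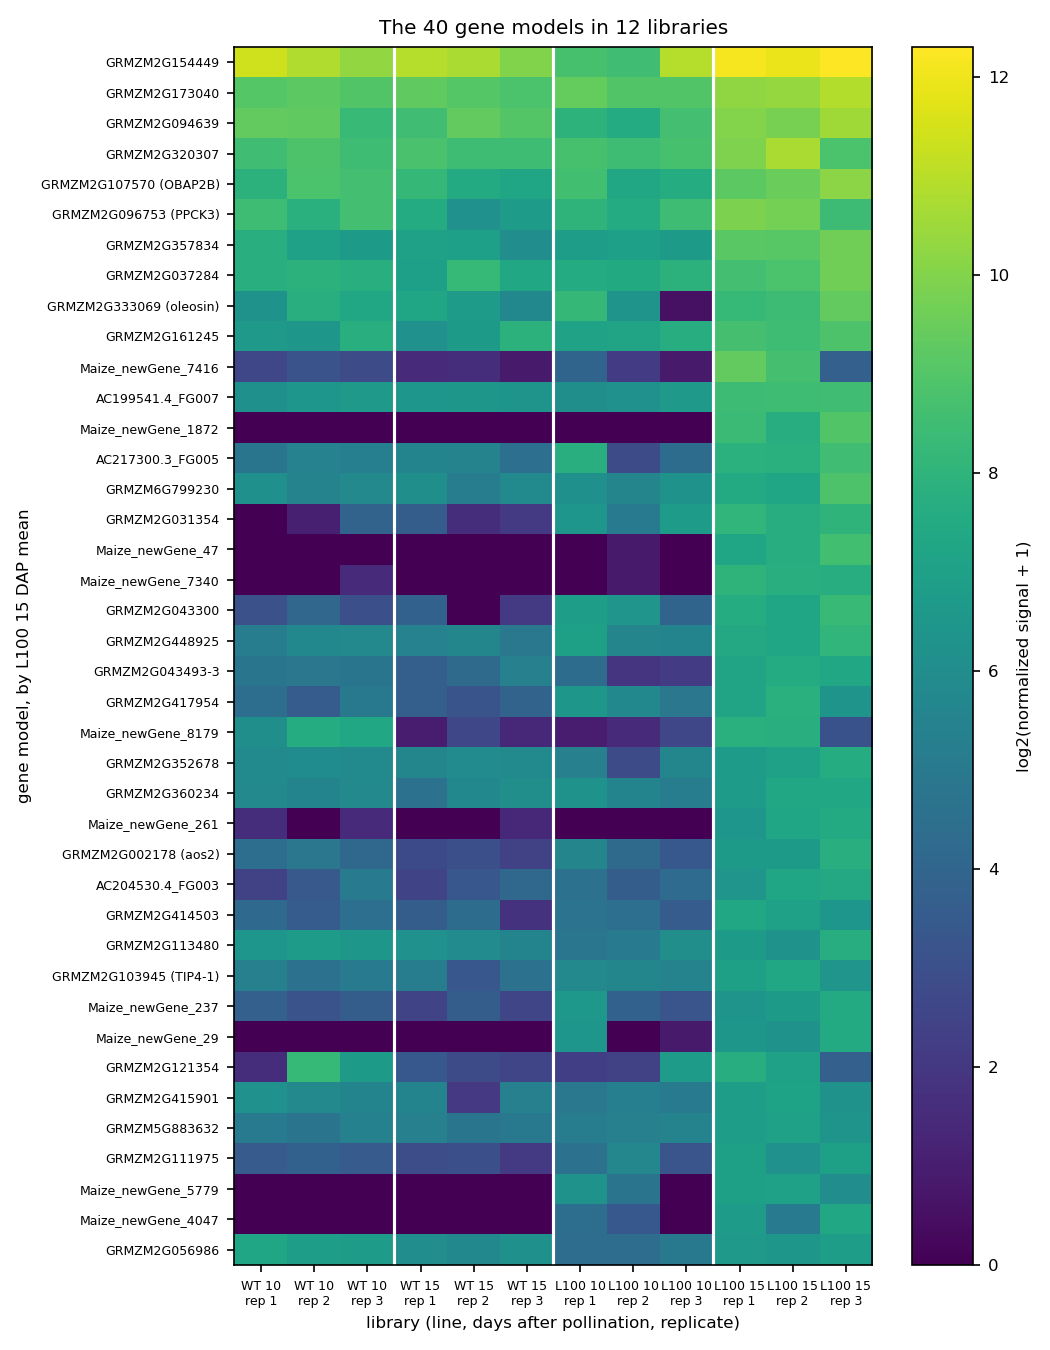
Normalized signal of the 40 genes (rows) in the 12 libraries (columns, in 4 groups of 3), colored by log2(signal + 1) and ordered by L100 mean at 15 DAP. The last 3 columns are the brightest in most rows, and several of the Maize_newGene rows are empty or nearly so in wild type.

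The set held a pair of genes of oil storage. OBAP2B (GRMZM2G107570, an oil body associated protein gene on chromosome 8 at 155562707 to 155563691 of B73 RefGen_v3, minus strand) had a normalized signal of 242, 455 and 397 in wild type at 10 DAP and of 290, 181 and 151 at 15 DAP. In L100 it was 378, 162 and 195 at 10 DAP and 584, 727 and 1162 at 15 DAP. The means were 365 ± 110 and 208 ± 72.7 in wild type and 245 ± 116 and 824 ± 301 in L100 (SD, n = 3). Each of the L100 libraries at 15 DAP stood above all 9 others, and the lines overlapped at 10 DAP.

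The oleosin gene GRMZM2G333069 (chromosome 1, 644670 to 645149, plus strand) was at 79.0, 213 and 164 in wild type at 10 DAP and at 152, 108 and 53.4 at 15 DAP. In L100 it was at 292, 81.4 and 0.49 at 10 DAP and at 306, 340 and 658 at 15 DAP. The L100 10 DAP libraries differed widely, from almost no signal in replicate 3 to nearly the level of the lowest 15 DAP library in replicate 1. The mean of 125 in that group had an SD of 151.

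Summed markers of the embryo rose between the stages in both lines. The means of OBAP2B and the oleosin gene rose in L100 only, which the choice of genes had fixed. The summed signal of 7 embryo marker models (matched from 9 names, and including glb1, glb2, ole1, vp1, lec1 and kn1) was 5125, 8504 and 7652 in wild type at 10 DAP and 16210, 20827 and 17754 at 15 DAP. It was 10970, 3870 and 3801 in L100 at 10 DAP and 36604, 30212 and 50850 at 15 DAP, and no marker was at 0 in any library. In L100 at 15 DAP the sum was carried by ole1 (a mean of 23374), glb2 (8717) and the glb1 model GRMZM2G067919 (5705). Other markers did not have more signal at 15 DAP in L100: kn1 went from a mean of 253 to 88.5, the glb1 model GRMZM2G067402 from 60.8 to 45.9, and lec1 from 25.7 to 26.3. The sum was highest in L100 15 DAP replicate 3 and, among the L100 10 DAP libraries, in replicate 1, as were OBAP2B and the oleosin gene. The same libraries were highest for the summed markers of the starchy endosperm (189133, 40241 and 102699 at 10 DAP, 1425018, 1463736 and 2077698 at 15 DAP). They were also highest for the basal transfer layer (28040, 14802 and 20281, then 13094, 11713 and 14049) and the embryo surrounding region (789, 209 and 591, then 205, 183 and 246). Single markers in these sums did not all follow, such as wx1 and mrp1, which were highest in replicate 2 at 15 DAP. At 15 DAP the sums of the aleurone and of the seed coat or nucellus were highest in replicates 2 and 1. In whole seeds a larger share of embryo and more RNA of these genes per embryo cell cannot be told apart, and the part of the embryo in the result was not tested. In wild type the embryo marker sum was higher in all 3 libraries at 15 DAP than in any at 10 DAP. The means of OBAP2B and the oleosin gene were lower. Only genes with a wild-type stage ratio of at most 1.1 were chosen, so nothing is read from this contrast.

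Relatives of these genes, chosen after the set was seen, had more signal at 15 DAP in both lines. OBAP1A had means of 460 ± 232 and 1048 ± 412 in wild type and 1061 ± 1340 and 3101 ± 868 in L100 at 10 and 15 DAP (SD, n = 3). In the same order OBAP2A had 511 ± 128, 1195 ± 213, 706 ± 635 and 2354 ± 176. oleosin4 (GRMZM2G480954) had 865 ± 293, 2578 ± 611, 1902 ± 1886 and 7579 ± 1947, and ole1 had 5521 ± 1312, 12708 ± 1148, 4688 ± 3372 and 23374 ± 4327. Replicate 1 stood apart in L100 at 10 DAP, with 2599, 436 and 148 for OBAP1A, 1439, 361 and 319 for OBAP2A, 4061, 1064 and 581 for oleosin4 and 8582, 2724 and 2758 for ole1. With edgeR, 3 of these 4 rose between the stages in L100 (12.2% of all genes did) and 1, ole1, rose in wild type (16.1% did). In L100 the log2 difference of ole1 was 2.31 (SE 0.40, adjusted p = 0.00221) and was called without each library in turn. The L100 calls of OBAP2A (1.73, adjusted p = 0.0273) and oleosin4 (1.99, adjusted p = 0.0366) were lost in 5 and in 9 of the 12 omissions, and the wild-type call of ole1 (1.21, adjusted p = 0.036) in 7. The call of OBAP2A was lost when replicate 2 or 3 of L100 at 10 DAP or any library of L100 at 15 DAP was omitted. That of oleosin4 was kept when replicate 1 of either line at 10 DAP or replicate 3 of wild type at 15 DAP was omitted, and lost otherwise. The wild-type call of ole1 was lost when any of the 6 wild-type libraries or replicate 1 of L100 at 15 DAP was omitted. None of the 4 had an interaction by edgeR (0 at an unadjusted p below 0.05, 0 by DESeq2) with all libraries. When replicate 1 of L100 at 10 DAP was omitted, 1 did, ole1 (log2 1.91, adjusted p = 0.0287), and 4 of the 4 were called between the stages in L100 and 3 in wild type.

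**Figure D3:**
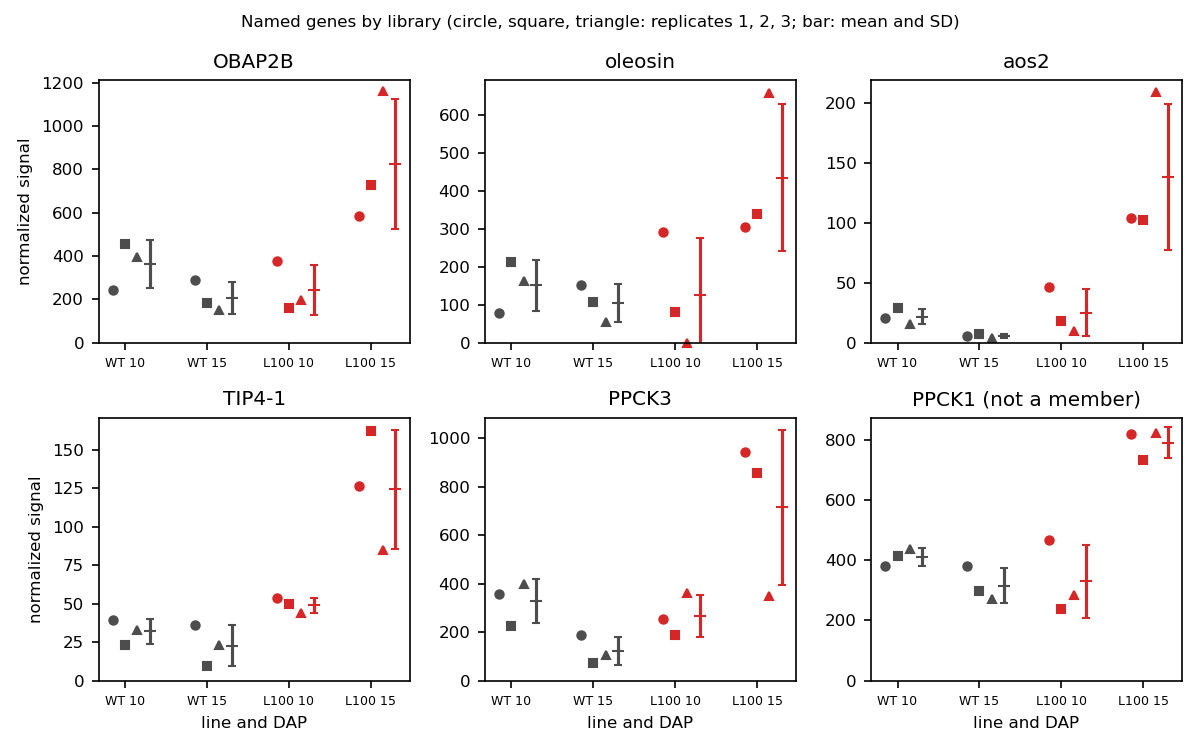
Normalized signal per library (points, replicate by symbol) with the group mean and SD (bar) of the 5 chosen genes with an informative name and of PPCK1, on linear axes from 0 (the SD bar of the oleosin gene in L100 at 10 DAP runs on below 0), in wild type (gray) and L100 (red) at 10 and 15 DAP. For each of the 5 genes the 3 L100 points at 15 DAP lie above the 3 wild-type points at 15 DAP, while at 10 DAP the lines overlap for each of the 5 except TIP4-1.

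Of the 5 genes with an informative name, 1 was an allene oxide synthase gene. aos2 (GRMZM2G002178, chromosome 1, 28926775 to 28928223, plus strand) had 20.9, 28.8 and 16.0 in wild type at 10 DAP and 5.68, 7.14 and 4.14 at 15 DAP, and 46.9, 18.2 and 9.43 in L100 at 10 DAP and 104, 102 and 209 at 15 DAP. Wild-type libraries at 15 DAP were thus all below those at 10 DAP, and the L100 libraries at 15 DAP were all above every other. The mean at 15 DAP was 21.0 times as high in L100 as in wild type by the quotient with 1 added. In FPKM, which is scaled to length, aos2 was still a low gene, at 6.61 ± 2.86 in L100 at 15 DAP (SD, n = 3).

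Another allene oxide synthase gene, aos1 (GRMZM2G067225), was far more abundant and did not share the pattern. Its FPKM was 90.7 in L100 at 15 DAP, and its normalized means were 2439 and 2479 in wild type and 3475 and 2032 in L100 at 10 and 15 DAP. It fell in L100 between the stages by 0.79 on the log2 scale (SE 0.16, edgeR adjusted p = 0.0044, called without each library in turn). A further 9 genes of allene oxide and jasmonate synthesis, aos1 included, were chosen after the set was seen. Over these 9, edgeR called no interaction (1 at an unadjusted p below 0.05, 1 by DESeq2), against 0.545% of all genes. It called 1 gene higher and 4 lower at 15 DAP in L100 (12.2% and 12.6% of all genes), and 1 higher and 3 lower in wild type (16.1% and 15.3%). opr7, which encodes a reductase of a later step, was higher in L100 at both stages. Its log2 differences were 0.83 at 10 DAP (edgeR adjusted p = 0.00202) and 0.85 at 15 DAP (edgeR adjusted p = 0.00159). Of all genes tested, 1.76% were called higher in L100 at 10 DAP and 3.57% at 15 DAP.

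PPCK3 (GRMZM2G096753, chromosome 5, 186556092 to 186557725, plus strand) encodes a phosphoenolpyruvate carboxylase kinase. It had 357, 226 and 399 in wild type at 10 DAP, 186, 74.4 and 105 at 15 DAP, 253, 189 and 362 in L100 at 10 DAP and 942, 855 and 350 at 15 DAP. L100 15 DAP replicate 3 therefore stood apart from replicates 1 and 2 and was below L100 10 DAP replicate 3. All wild-type values at 15 DAP were below those at 10 DAP.

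The related gene PPCK1 (GRMZM2G178074), chosen after the set was seen and not among the 40, was at means of 411 and 316 in wild type and 330 and 791 in L100. It rose in L100 by 1.247 on the log2 scale (SE 0.21, edgeR adjusted p = 0.00157), and at 15 DAP it was higher in L100 than in wild type by 1.32 (adjusted p = 0.00504). Both calls were kept without each library in turn. Its interaction of 1.63 (SE 0.30, adjusted p = 0.0447) was called only with all libraries or without L100 10 DAP replicate 1, and the adjusted p without any other library reached up to 0.116. PPCK2 (GRMZM2G135091) was at 656 and 422 in wild type and 627 and 500 in L100. PPCK2 fell in wild type by 0.64 (adjusted p = 0.00764), and in L100 its adjusted p was 0.122.

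TIP4-1 (GRMZM2G103945, chromosome 6, 133537559 to 133539388, plus strand) encodes an aquaporin of the tonoplast, the membrane of the vacuole. It had 39.6, 23.3 and 32.9 in wild type at 10 DAP, 36.0, 9.18 and 23.2 at 15 DAP, 53.7, 49.5 and 43.7 in L100 at 10 DAP and 126, 162 and 85.0 at 15 DAP. The L100 libraries lay above the wild-type libraries at both stages. With a stage ratio of 2.51, it was the gene nearest to the threshold in L100. TIP4-2 (GRMZM2G108273) had means of 357, 297, 352 and 481 in wild type at 10 and 15 DAP and L100 at 10 and 15 DAP, and TIP4-4 (GRMZM2G093090) had 499, 46.4, 548 and 130. TIP4-4 fell in both lines. At 15 DAP edgeR called TIP4-2 (log2 0.68, adjusted p = 0.0207) and TIP4-4 (log2 1.46, adjusted p = 0.0275) higher in L100, where 3.57% of all genes tested were. At 10 DAP it called neither. Omitting a single library left 0 to 2 of these calls at 15 DAP.

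Gene lists chosen with earlier results of these data known gave the wider setting. Of 14 embryo maturation and storage genes tested, none was in the set. Of these 14, 7 rose and 1 fell between the stages in L100, where 12.2% of all genes rose and 12.6% fell. In wild type 6 of the 14 rose and 1 fell, where 16.1% of all genes rose and 15.3% fell. The median log2 difference of the 14 was 1.251 in L100 and 0.845 in wild type, against -0.03 and -0.01 over all genes. None of the 14 had an interaction by edgeR (3 at an unadjusted p below 0.05, 1 by DESeq2), against 0.545% of all genes. Without replicate 1 of L100 at 10 DAP, edgeR called 2 of the 14. The 7 wild-type calls became 3 without replicate 1 or 3 of wild type at 10 DAP, and 4 without replicate 2 of that group or without replicate 1 or 2 of wild type at 15 DAP. The globulin gene glb2, a storage protein gene with means of 55.0 and 480 in wild type and 58.2 and 8717 in L100, was outside the set because its wild-type ratio was above 1.1. Of 63 defense and wound response genes tested, 1, aos2, had an interaction by edgeR (7 at an unadjusted p below 0.05, 4 by DESeq2), against 0.545% of all genes. The count was 1 without replicate 1 and 2 without replicate 3 of L100 at 10 DAP, and 0 without any of the other 10 libraries. In this list 8 were higher and 16 lower at 15 DAP in L100 (12.2% and 12.6% of all genes), and 8 and 15 in wild type (16.1% and 15.3%). Of 45 membrane transport genes tested, TIP4-1 among them, none had an interaction by edgeR (12 at an unadjusted p below 0.05, 3 by DESeq2). In L100 5 of them rose and 11 fell (12.2% and 12.6% of all genes), and in wild type 10 rose and 7 fell (16.1% and 15.3%).

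The most abundant of the 40 genes had no name in the reference table. GRMZM2G154449 (chromosome 7, 176440036 to 176441573, minus strand) was at 2757, 1818 and 1250 in wild type at 10 DAP, 1940, 1689 and 1012 at 15 DAP, 424, 371 and 1932 in L100 at 10 DAP and 4424, 3957 and 5050 at 15 DAP. L100 10 DAP replicate 3 lay within the wild-type range, and replicates 1 and 2 lay below it. The next in level was GRMZM2G173040 (chromosome 10, 99807827 to 99811262), with 529, 581 and 503 in wild type at 10 DAP, 635, 534 and 443 at 15 DAP, 664, 491 and 492 in L100 at 10 DAP and 1209, 1296 and 1892 at 15 DAP. This gene had tight libraries in the first 3 groups.

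GRMZM2G094639 (chromosome 1, 92473890 to 92474567) reached 1032, 864 and 1487 in L100 at 15 DAP, from 246, 189 and 399 at 10 DAP, and its wild-type libraries were between 318 and 645 at both stages. GRMZM2G320307 (chromosome 5, 201317859 to 201326145) had 961, 1683 and 449 in L100 at 15 DAP, with 358 to 427 at 10 DAP and 353 to 471 in wild type. Its lowest L100 library at 15 DAP was 1.02 times the highest wild-type library of that stage, the smallest gap in the set, and L100 15 DAP replicate 3 again stood below the other two. GRMZM2G357834 (chromosome 6, 141701127 to 141702544) had 562, 549 and 782 in L100 at 15 DAP and 64.5 to 218 in the other 9 libraries. GRMZM2G037284 (chromosome 5, 63737811 to 63740119) had 388, 458 and 782, against 123 to 306 elsewhere. The 17 genes that the naming rule left out had L100 means of 108 to 411 at 15 DAP, stage ratios of 2.53 to 7.31 in L100 and of 0.06 to 1.06 in wild type.

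A large part of the set was not in the reference annotation. Models named Maize_newGene, whose making is not stated, were 10 of the 40, 3.41% of the models with an L100 mean of at least 100 at 15 DAP, and 7 of the 36 genes chosen with the lines swapped (19.44%). The 40 gene models were short, with a median length of 1096 bases against 1688, and 14 of them (35.0%) had a length equal to their span on the genome, so no intron, against 9.91%. No test of these shares was made.

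Several of the new models had no or almost no signal outside L100 at 15 DAP. Maize_newGene_1872 (chromosome 2, 15941787 to 15943695) had 331, 204 and 492 there and 0.00 in the 9 other libraries, though its count reached 1 at 10 DAP in both lines. Maize_newGene_47 (chromosome 1, 80548183 to 80549694) had 152, 200 and 382, no count in wild type, and 0.87 in 1 L100 library at 10 DAP, so that it was at least 87.6-fold higher in L100 than in wild type at 15 DAP, against a floor of 3 counts per library. Maize_newGene_7340 (chromosome 8, 84262801 to 84266701) had 256, 213 and 203 and at most 1.8 in the other 9 libraries. Maize_newGene_261 (chromosome 1, 80294587 to 80298235) had 88.6, 155 and 180, no count in L100 at 10 DAP and at most 2.1 in wild type, which made it at least 52.7-fold higher at 15 than at 10 DAP in L100 by the same floor. For these 4 models the 15 DAP libraries of L100 and all other libraries formed separate ranges.

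Other new models were also present in some L100 libraries at 10 DAP. Maize_newGene_29 (chromosome 1, 37929154 to 37931678) had no count in wild type, 88.2, 0.00 and 0.86 in L100 at 10 DAP and 90.7, 77.1 and 184 at 15 DAP. Maize_newGene_5779 (chromosome 6, 117838417 to 117841486) had no count in wild type, 76.7, 26.0 and 0.00 in L100 at 10 DAP and 125, 130 and 63.4 at 15 DAP, and Maize_newGene_4047 (chromosome 4, 154701956 to 154704748) likewise had none, then 21.1, 9.55 and 0.00, then 107, 32.2 and 167. At 15 DAP these 3 were at least 42.0-fold, 38.0-fold and 36.6-fold higher in L100 than in wild type. In each of the 3, L100 10 DAP replicate 1 was the highest library of its group and replicate 3 was at or near 0.

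The remaining new models differed in other ways. Maize_newGene_7416 (chromosome 8, 172588721 to 172594503) had 661, 403 and 12.7 in L100 at 15 DAP and 0.83 to 14.4 in the other libraries, so that replicates 1 and 2 carried its mean and replicate 3 was below the highest L100 value at 10 DAP. Maize_newGene_8179 (chromosome 9, 118694127 to 118701989, plus strand) went opposite ways in the lines: 67.8, 196 and 164 in wild type at 10 DAP, 0.95, 5.1 and 1.65 at 15 DAP, 0.96, 1.74 and 5.14 in L100 at 10 DAP, and 225, 209 and 7.6 at 15 DAP. It lies within GRMZM2G113873, which is on the other strand and had means of 1712, 1734, 1553 and 1656 in the same order of groups, and whether the counting used strand is not stated. GRMZM2G121354 (chromosome 6, 81777728 to 81781156), a reference model, was also uneven within groups, with 2.1, 299 and 105 in wild type at 10 DAP, 9.5, 6.1 and 5.0 at 15 DAP, 3.8, 4.3 and 110 in L100 at 10 DAP and 200, 129 and 12.7 at 15 DAP.

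For AC199541.4_FG007 and GRMZM2G043493-3 the signal of a neighboring model is given beside the value. Others of the 40 also lie close to a model with signal, such as AC204530.4_FG003, 21 bases from AC204530.4_FG002. The part of such neighbors in the values was not tested. AC199541.4_FG007 (chromosome 1, 78371788 to 78373209, plus strand) had 70.9, 87.5 and 100 in wild type at 10 DAP, 86.1, 91.8 and 80.3 at 15 DAP, 68.0, 72.9 and 99.4 in L100 at 10 DAP and 340, 352 and 369 at 15 DAP, the tightest L100 values at 15 DAP among the genes described here. It lies inside AC199541.4_FG001 (chromosome 1, 78336573 to 78415758) on the same strand, whose means were 480, 362, 442 and 125. The sum of both was 566 ± 56.8, 448 ± 97.9, 522 ± 97.1 and 479 ± 39.95 (SD, n = 3), and its libraries overlapped between groups except that those of L100 at 15 DAP (435 to 513) lay below those of wild type at 10 DAP (515 to 627). By edgeR, AC199541.4_FG001 fell in L100 by 1.83 on the log2 scale (SE 0.31, adjusted p = 0.00164, called without each library in turn). How reads were divided between the 2 models is not stated, so their separate values are uncertain.

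GRMZM2G043493-3 (chromosome 1, 56577760 to 56578853) had 145, 186 and 165 in L100 at 15 DAP, 19.2, 2.6 and 3.4 at 10 DAP and 12.3 to 39.7 in wild type. Its neighbor GRMZM2G043493-2, a second piece of the same locus, had a mean of 14.2 in L100 at 15 DAP, and the sum of both kept the pattern, with means of 27.2, 23.7, 8.97 and 180.

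Members of the set were unevenly spread over the genome. Chromosome 1 held 16 of the 40, against 16.03% of the models with an L100 mean of at least 100 and 19.44% of the genes chosen with the lines swapped. Of these 16, 13 lay between 28 and 93 Mb, a stretch whose bounds were set after the positions were seen and which held 3.61% of the 15746 models. The 13 were aos2, GRMZM2G360234, GRMZM2G352678, GRMZM5G883632, AC217300.3_FG005, GRMZM2G043493-3, AC204530.4_FG003, AC199541.4_FG007, GRMZM2G094639 and 4 new models, Maize_newGene_237, Maize_newGene_29, Maize_newGene_261 and Maize_newGene_47. In 10 of the 13, L100 15 DAP replicate 3 was the highest of its group.

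Within this stretch, L100 10 DAP replicate 1 was apart from replicates 2 and 3 for some genes and not for others. AC217300.3_FG005 had 208, 6.1 and 19.7 in L100 at 10 DAP and 229, 227 and 369 at 15 DAP, with 21.5 to 46.4 in wild type. Maize_newGene_237 had 94.9, 13.0 and 8.6, then 81.3, 102 and 181, with 4.7 to 12.5 in wild type. For these 2 and Maize_newGene_29, replicate 1 at 10 DAP was at about the level of the lower 15 DAP libraries of L100. For Maize_newGene_261 and Maize_newGene_47, further along the stretch, it held no count.

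The 839 other genes tested in the stretch were examined in the same edgeR fit. At 15 DAP 9.06% of them differed between L100 and wild type, 36 higher and 40 lower in L100, beside 6.66% of all genes tested (3.57% higher and 3.09% lower). At 10 DAP 0.83% differed, beside 3.0%. For the interaction the share was 0.48%, beside 0.545%. The models next to the 40 genes along the genome, 78 in all with 53 tested, had 3.77% called different between L100 and wild type at 15 DAP, 1.89% called at 10 DAP (2 and 1 models, and 0 to 4 and 0 to 2 without each library in turn), and no interaction by edgeR with all libraries or without any 1 of them (7 at an unadjusted p below 0.05, 1 by DESeq2).

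**Figure D4:**
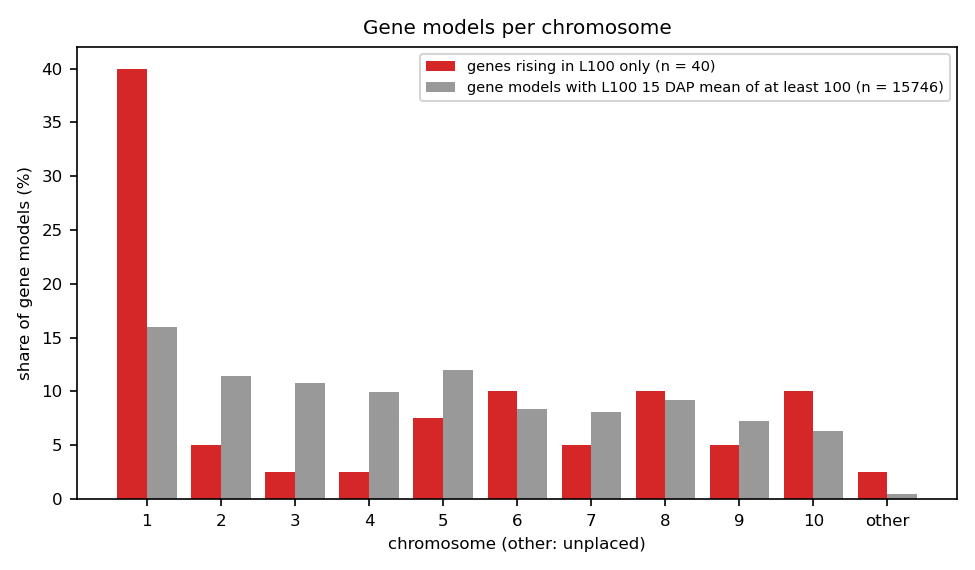
Share of the 40 genes (red) and of all gene models with an L100 mean of at least 100 at 15 DAP (gray) on each chromosome, in percent with bars from 0; other stands for unplaced models. The tallest bar is that of the 40 genes on chromosome 1, which holds 16 of them, beside 16.03% of all these models.

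L100 15 DAP replicate 3 divided the set. It was the highest of the 3 libraries for 24 genes (60.0%, against 45.04% of the 15746 models), the middle for 4 and the lowest for 12 (30.0%, against 39.18%). Where it was highest, it was 1.07 to 2.75 times the mean of replicates 1 and 2, and 13 of the 24 genes were on chromosome 1. Where it was lowest, it was 0.02 to 0.86 times that mean, and 1 of the 12 was on chromosome 1. Below 0.1 were Maize_newGene_7416, Maize_newGene_8179 and GRMZM2G121354. For 12 genes (30.0%, against 12.07%) replicate 3 was the highest at 15 DAP and replicate 1 the highest at 10 DAP, the libraries that were also highest for the summed markers of the embryo, starchy endosperm, basal transfer layer and embryo surrounding region. OBAP2B, the oleosin gene and aos2 were among these. The part of tissue shares and of these libraries in the values was not tested.

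**Figure D5:**
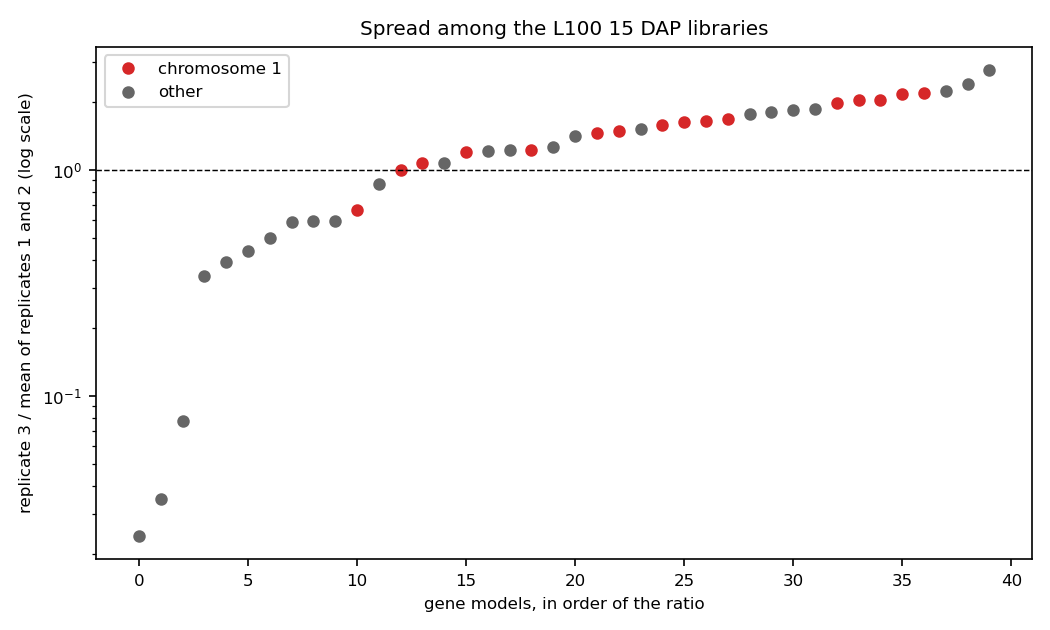
L100 15 DAP replicate 3 divided by the mean of replicates 1 and 2 (log scale) for each of the 40 genes, colored by whether the gene is on chromosome 1. The points run from 0.02 to 2.75, with 24 genes at the upper end where replicate 3 was the highest library.

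The genes at the edges of the choice were close to those just outside. GRMZM2G056986 (chromosome 8, 167004729 to 167006120) was the lowest in level, at a mean of 102, with 100, 89.7 and 115 in L100 at 15 DAP, 20.1, 19.96 and 30.9 at 10 DAP, 149, 113 and 108 in wild type at 10 DAP and 64.4, 52.0 and 72.0 at 15 DAP, and LAZ1-6 missed only the level, at 94.2. GRMZM2G063909 missed only the stage ratio in L100, at 2.47. GRMZM2G031354 was nearest to the wild-type limit, at 1.08, with at most 14.2 in wild type, 88.2, 33.0 and 109 in L100 at 10 DAP and 275, 204 and 257 at 15 DAP, and Maize_newGene_3035 missed it at 1.1025. GRMZM2G156206 missed the separation of the lines at 15 DAP, with its lowest L100 library at 0.94 times the highest wild-type library.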

How the data were processed

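Seeds of 2 lines at 2 stages were sequenced in 12 libraries. Bowtie 0.12.2 and B73 RefGen_v3 are named in the submitters' processing notes, and no source used here gives the counting program, the strand setting or the making of the Maize_newGene models. Per the file headers, the authors deposited for each gene model an expected count, written as whole numbers, a normalized signal and an FPKM. From the values, the normalized signal is close to an unrounded estimate times 1 factor per library, but this did not hold for every model. Maize_newGene_1872 had a count of up to 1 at 10 DAP in both lines, where its normalized signal was 0.

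The normalized signal chose the genes and gives the levels, with 1 added to both means of a ratio. Levels of aos2 and aos1 were compared in FPKM, as deposited. Other rankings by level used the normalized signal, which is not scaled to length. Counts were tested in R 4.3.3 with edgeR 4.0.16 (TMM, filterByExpr, robust quasi-likelihood fit, 1 mean per group, 12 libraries, Benjamini-Hochberg adjustment over 24941 genes, threshold 0.05); DESeq2 1.42.0 and others were alternatives. The floor of 3 counts covers counting error only. The steps were tested on simulated data.

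Gene names were looked up in a table for Zm-B73-REFERENCE-NAM-5.0, which matched 19 of the 40 genes and gave 5 an informative name. The genes, gene lists and markers were chosen with earlier results of these data known. Genes were named by rule: those with an informative name, the 8 highest in level, in stage ratio and in line ratio, those at each threshold, and list members; relatives, overlapping models, the chromosome 1 stretch and genes uneven within a group were picked after values were seen. Of the gene lists drawn up, 3 are reported.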

Additional observations from a re-analysis of the deposited data

Results flagged for a closer look

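For 9 of the 40 genes, the stage difference differed between L100 and wild type by edgeR's interaction test (Benjamini-Hochberg adjusted p below 0.05 over all genes tested). The genes were chosen for this difference, so the values describe and support nothing. The stage difference in L100 minus that in wild type, on the log2 scale, was 1.40 for GRMZM2G173040 (adjusted p = 0.0473), 2.13 for AC199541.4_FG007 (adjusted p = 0.0128), 2.96 for GRMZM2G357834 (adjusted p = 0.0233) and 3.05 for GRMZM2G056986 (adjusted p = 0.0118). It was 4.40 for aos2 (GRMZM2G002178, adjusted p = 0.0419) and 4.41 for GRMZM2G043493-3 (adjusted p = 0.0469). For the new models it was 11.22 for Maize_newGene_8179, 11.69 for Maize_newGene_261 and 12.22 for Maize_newGene_7340. Maize_newGene_261 and Maize_newGene_7340 had a group with every library at 0 counts, so their fitted sizes are no bound. Without each library in turn the fitted size ran from 10.79 to 12.07, 11.20 to 14.22 and 9.05 to 13.99 for these 3 models. AC199541.4_FG007 and GRMZM2G056986 were called in all 12 omissions of a library, GRMZM2G357834 in 8, and Maize_newGene_8179 and Maize_newGene_261 in 5. GRMZM2G043493-3 was called in 3, and GRMZM2G173040, aos2 and Maize_newGene_7340 in 2. The separate value of AC199541.4_FG007 is uncertain, since it lies inside AC199541.4_FG001 on the same strand. GRMZM2G056986 was lower in L100 at 10 DAP and was not called between the lines at 15 DAP.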

How the results depend on the processing

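The number of genes chosen was 40, and 63 with a stage ratio of at least 2 in L100, 70 and 19 with a lowest level of 50 and 200, and 62 when the lines could overlap at 15 DAP. With FPKM it was 4, since 100 is a higher bar in that unit. With TMM-scaled CPM it was 34, of which 29 were shared. Without each library in turn it ran from 39 to 54, and 15 of the 40 were chosen in every omission. Calls among the 40 without each library in turn ran from 2 to 11 for the interaction, 21 to 30 for the stages in L100, 2 to 5 for the stages in wild type, 21 to 30 for L100 against wild type at 15 DAP and 1 to 7 at 10 DAP. DESeq2 called 24 for the interaction and 5 at 10 DAP, where edgeR called 9 and 3; over all genes it called 1076 interactions and edgeR 136. The cause was not tested.

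With the replicate number as a block, 3 were called for the interaction, 29 and 4 between the stages in L100 and wild type, 26 for L100 against wild type at 15 DAP, 1 at 10 DAP, and 26 genes in all had an interaction. Over all genes the same-numbered libraries did not deviate together (correlations of -0.101 to 0.042 over 18 pairs). These correlations cannot show whether such libraries share a batch or a plant, and the labels do not say what the numbers share. Of 2055 values of the named genes under alternatives, 1860 kept direction and side of the threshold and 1 changed sign: the interaction of GRMZM2G031354 was 1.64 with all libraries and ran from -1.41, when replicate 3 of wild type at 10 DAP was omitted, to 2.63, and none of these was called. Library totals in place of TMM moved the median log2 stage difference of all genes by -0.298 in L100 and -0.318 in wild type, and no direction among the counts of calls is drawn from that scaling. Models with under 3 counts in a group give no fold beyond a bound. The promoter motif search was not run.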
